A study of Mus musculus with 14 samples.

Results

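The comparison described here set heads of mouse embryos with a deleted copy of Twist1 in every cell against heads with both copies present, and it covered all measured genes. Het heads carried the genotype Twist1 flox/del; Mesp1 +/+ (n = 3), that is, a floxed copy beside a deleted copy and no Cre. Control heads carried Twist1 flox/+; Mesp1 +/+ (n = 4), a floxed copy beside a wild-type copy, also without Cre. Both groups therefore share a floxed allele, and neither holds the 2 unmodified copies of a wild-type mouse. These 7 arrays are part of a series of 14. The other 7 hold CM-CKO heads (Twist1 flox/del; Mesp1 Cre/+, n = 4), in which Cre is expressed from the Mesp1 locus of early mesoderm, and CM-Het heads (Twist1 flox/+; Mesp1 Cre/+, n = 3), and they enter only as side values and in the shared estimate of the spread. All embryos were E8.5, at 5 to 7 somites, of mixed C57Bl/6 x 129 x BALB/c background, and total RNA of the head was read on Illumina bead arrays. The sources used here do not say whether a replicate is a single embryo or a pool. Arrays of the same genotype differed in sex-linked signal, as given below for Het and Control, so at least some of them hold different material. The spread behind each p-value is that of these arrays, and how much of it is technical is not known.

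Twist1 is a basic helix-loop-helix transcription factor of the head mesenchyme, which forms from cranial mesoderm and neural crest. It binds DNA at E-boxes as a dimer with itself or with E proteins such as Tcf3, Tcf4 and Tcf12, and Id proteins take those partners away. Loss of a single copy of human TWIST1 causes Saethre-Chotzen syndrome, in which the coronal suture of the skull closes early, and mice with a single copy show a related suture defect after birth.

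The 3 Het arrays lay on beadchip 1 together with the CM-Het arrays, and the 4 Control arrays lay on beadchip 2 together with CM-CKO 1 and 2. Beadchip and genotype therefore cannot be told apart in Het against Control. For that reason differences of Het from CM-Het, both on beadchip 1, and the difference of the deleted allele averaged over heads with and without Cre are given beside many of the main values. CM-Het heads carry Cre and have also lost a copy of Twist1 in the Mesp1 lineage. In a difference near 0 between Het and CM-Het, a beadchip shift and a loss common to both groups therefore cannot be told apart. A shift of beadchip 1 against the other beadchips cancels in that average. CM-CKO 3 and 4 lie on beadchip 3, so a shift between beadchips 2 and 3 enters it in part. The average also joins unlike steps of Twist1 copy number. In the Mesp1 lineage CM-CKO heads have lost both copies and CM-Het heads a single copy. The median raw intensity ran from 109 to 116 on Het arrays and from 92.3 to 109 on Control arrays, and 40.8% to 42.8% of probes on Het arrays and 40.3% to 43.0% on Control arrays were above background. The number of arrays limits the precision: the median standard error of a difference was 0.129 on the log2 scale, and the median 95% interval reached 0.272 to either side. Of the markers of head mesenchyme, all 4 with a probe were above background on all 7 arrays. So were the neural crest markers Sox10, Tfap2a and Dlx2 and the neural markers Sox2, Sox3 and Otx2. The neural crest marker Foxd3 and the myeloid marker Tyrobp were above background on 0 of the 7 arrays. The neural marker Pax6 was so on 0 Het arrays and 1 Control array, and Sox1 on 0 Het arrays and 2 Control arrays. Xist was below background on Het 3, and Xist together with the Y-linked Eif2s3y was above background on 1 of 3 Het and 3 of 4 Control arrays. On Het 2 the pair read 9.86 and 7.95, whereas on Het 1 and Control 3 Eif2s3y was below background. Whether arrays with both signals hold pooled embryos was not tested. The part of these differences between arrays in the results was not tested beyond the alternatives given with them.

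Over 11394 genes, limma called 0 genes at an adjusted p under 0.05 (0% of those tested). At an unadjusted p under 0.05 there were 1418 genes (12.4%), of which 695 were higher (6.1%) and 723 lower (6.35%) in Het. An adjusted p under 0.1 was reached by 12 genes (0.105%), 11 of them higher in Het and Twist1 lower. The Het and Control arrays did not overlap for 1288 genes (11.3%), with Het above for 639 (5.61%) and below for 649 (5.7%). The median difference over all genes was -0.01 (log2), and 32 genes differed by more than 1. No sentence below therefore rests on a called gene in this comparison, and all differences are log2 values of Het minus Control unless another pair is named.

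Twist1 signal was lower in every Het head than in any Control head. Its log2 signal was 8.46, 8.63 and 8.70 in Het, against 9.55, 9.17, 9.13 and 9.41 in Control. The groups did not overlap. The difference was -0.72 (SE 0.11, limma adjusted p = 0.0823), which leaves 60.8% of the Control signal. It had the smallest p of all genes. A two-sided exact permutation test gave 0.0571, which is the smallest value that the 35 splits of 3 against 4 arrays allow when the one-sided value is doubled. Het lay close to the CM-Het heads of the same beadchip, which have lost a copy only in the Mesp1 lineage, with a difference of -0.06 (SE 0.12). Averaged over heads with and without Cre the Twist1 difference was -0.81 (limma adjusted p = 8.92e-05). Where the probe sits relative to the deleted part of the gene is not given in the sources used here, so the remaining signal says nothing about which allele it comes from. In bulk heads, fewer Twist1-positive cells and less Twist1 RNA per cell cannot be told apart.

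**Figure D1:**
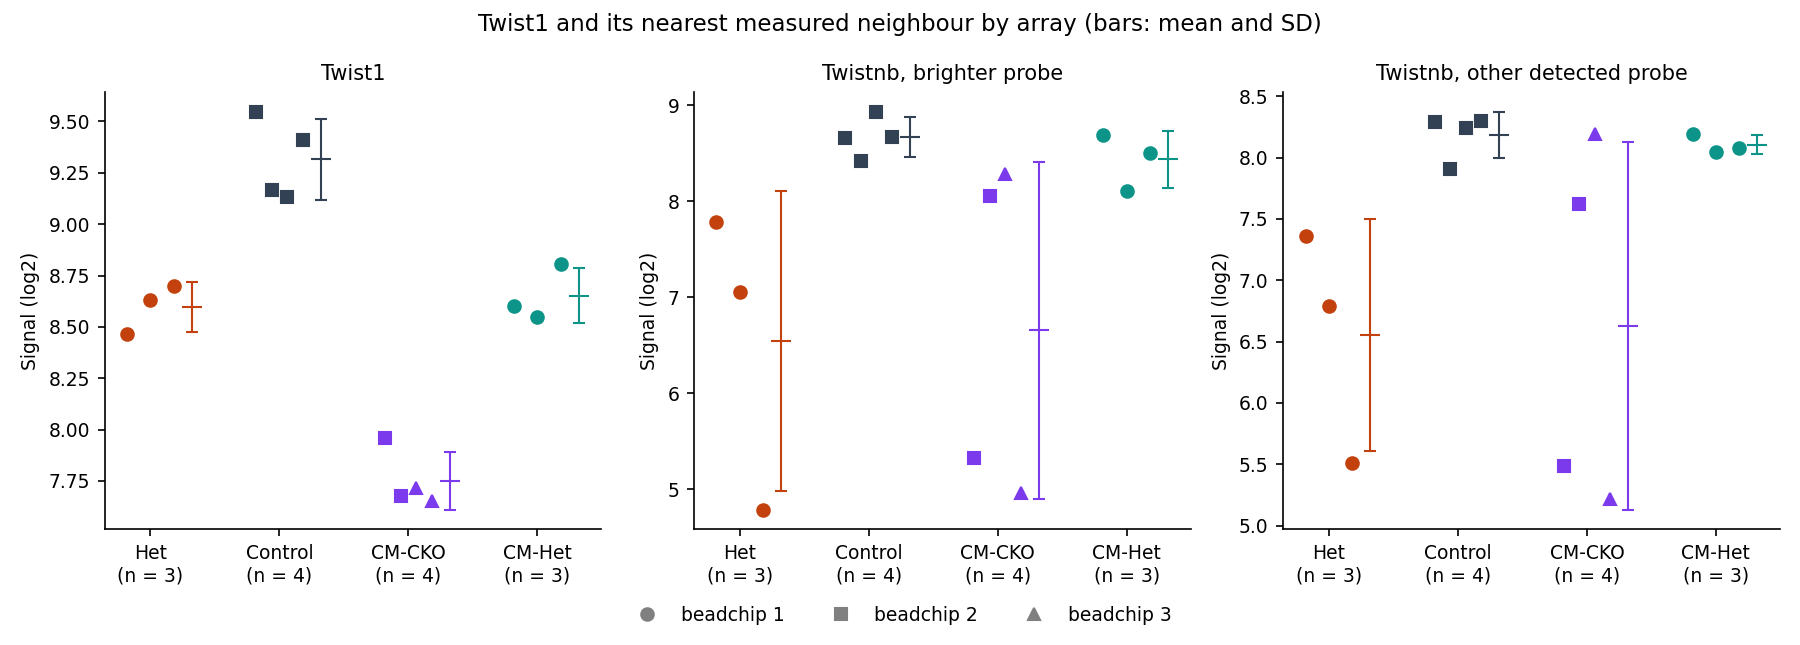
Log2 signal of Twist1 and of both detected probes of Twistnb, the tested gene next to it on 1 side, on each array, by genotype. Bars give group means and SD, and the point shape gives the beadchip. The 3 Het arrays lie below all 4 Control arrays in each panel, and for Twistnb the Het arrays and the CM-CKO arrays spread widely, with Het 3 at 4.79 and CM-CKO 4 at 4.96 on the brighter probe.

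The bases upstream of Twist1 and of Twistnb, the tested gene next to it on 1 side, are shown. Twist1 binds E-boxes, and Twistnb had the second largest difference of the comparison. Each is the 250 bases before the gene's start in RefSeq on GRCm38.p6, and capitals mark E-boxes, searched as CANNTG, which reads the same on both strands. The Twist1 window lies at chr12:33957421-33957670 on the plus strand and the Twistnb window at chr12:33429374-33429623, also on the plus strand.
Twist1: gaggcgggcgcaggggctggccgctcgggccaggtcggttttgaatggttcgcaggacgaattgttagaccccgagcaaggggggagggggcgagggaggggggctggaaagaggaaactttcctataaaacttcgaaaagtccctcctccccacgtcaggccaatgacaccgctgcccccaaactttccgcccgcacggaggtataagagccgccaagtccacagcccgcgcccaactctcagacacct
Twistnb: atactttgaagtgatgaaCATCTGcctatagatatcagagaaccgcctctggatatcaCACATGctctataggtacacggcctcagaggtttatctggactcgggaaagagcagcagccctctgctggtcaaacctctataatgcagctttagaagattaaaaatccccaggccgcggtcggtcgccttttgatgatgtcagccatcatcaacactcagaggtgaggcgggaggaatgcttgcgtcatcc
The Twist1 window holds 0 of these motifs and the Twistnb window 2. Of 32851 windows of this length over all genes, 66.22% hold at least 1, so a match is common and is only a description of the letters.

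The neighbourhood of the deleted gene on chromosome 12 was read next. Twistnb, which encodes a subunit of RNA polymerase I and lies next to Twist1 among the measured genes, was named after its values had been seen. Its brighter probe read 7.78, 7.05 and 4.79 in Het, against 8.66, 8.42, 8.93 and 8.67 in Control. The groups did not overlap, but the Het arrays were spread widely (SD 1.56, against 0.21 in Control), with Het 3 lowest. The difference was -2.13 (SE 0.71, limma adjusted p = 0.248). A second probe read 7.36, 6.79 and 5.51 in Het, against 8.29, 7.91, 8.24 and 8.30 in Control, again with Het 3 lowest and Control 2 the lowest of its group. CM-CKO heads, which carry the same deleted allele, read 5.32, 8.05, 8.29 and 4.96 on the brighter probe, whereas CM-Het heads read 8.69, 8.11 and 8.51. Low values thus occurred on 2 of 4 CM-CKO arrays and on 0 of the 7 arrays without the deleted allele. Het 3 lacked Xist signal, as did CM-CKO 3 and 4, of which CM-CKO 3 was not low.

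Of the 30 tested genes on either side of Twist1, 12 of 60 (20%) had an unadjusted p under 0.05, 6 higher and 6 lower, beside 12.4% of all genes, and 0 were called. Their median difference was -0.04. Mboat2, an acyltransferase of membrane phospholipids that lies 29 tested genes away, read 7.79, 7.60 and 6.32 in Het, against 8.45, 7.65, 8.28 and 8.40 in Control. Het 3 was again lowest, and Het 1 overlapped the Control range (difference -0.96, SE 0.28, adjusted p = 0.192), while its other detected probes differed by -0.31, 0.07 and 0.13. Snx13, a sorting nexin of endosomes 2 genes away on the other side, was higher in all Het arrays on its brightest probe, at 7.76, 7.91 and 7.92 against 7.25, 7.61, 7.45 and 7.38 in Control (difference 0.45, SE 0.11, adjusted p = 0.128). Its other probes differed by 0.05 and 0.26. Hdac9, the histone deacetylase gene next to Twist1 on its other side, differed by -0.15 (SE 0.12).

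**Figure D2:**
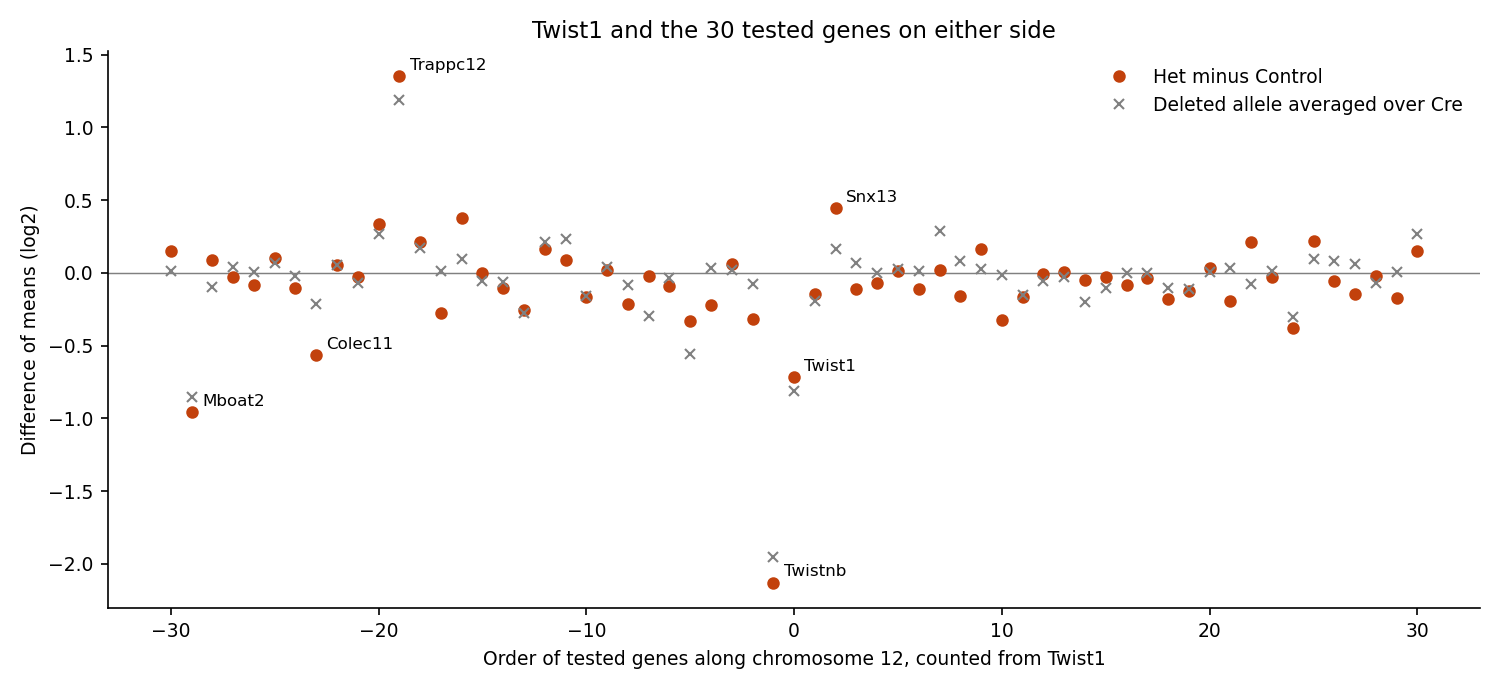
Difference of mean log2 signal for Twist1 and the 30 tested genes on either side of it, in their order along chromosome 12, as Het minus Control (circles) and for the deleted allele averaged over Cre (crosses). Twistnb at -2.13 lies lowest, Trappc12 at 1.35 highest on the probe kept for it, and most of the others lie near 0.

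The 10 genes of smallest p in each direction were named, and none of them passed the threshold. On the higher side the adjusted p was 0.0937 for all 10, and on the lower side it was 0.0823 for Twist1 and 0.102 for the other 9. The Het arrays did not overlap the Control arrays for any of the 20, which follows in part from ranking by p and is read beside the 11.3% of all genes.

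Histone genes took 3 of the 10 higher places. None of these 3 is a member of the list of replication-type histones described further on, and they belong to the 52 clustered histone genes found by symbol, whose counts are given there. H2bc21, a histone H2B gene, read 9.85, 10.11 and 10.03 in Het, against 9.22, 9.01, 9.31 and 9.09 in Control (difference 0.84, SE 0.15). A dimmer probe of H2bc21 read the other way by -0.18. H2bc18, another H2B gene, read 5.77, 5.78 and 6.05 in Het, against 4.94, 4.84, 4.57 and 4.53 in Control (1.14, SE 0.22), with 2 of 4 Control arrays above background. H3c7, a histone H3 gene, read 9.97, 10.47 and 10.43 in Het, against 9.57, 9.54, 9.64 and 9.65 in Control (0.69, SE 0.13), while its dimmer probe differed by -0.55. All 3 stood within 0.07 of their mean in CM-Het, on the same beadchip as Het.

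The other higher genes serve in several processes. Pih1d1, a subunit of the R2TP co-chaperone complex, read 10.08, 10.01 and 9.90 in Het, against 9.64, 9.67, 9.57 and 9.50 in Control (0.40, SE 0.07), and it also lay 0.24 above CM-Het. Nudt1, which removes oxidised purine nucleotides, was higher by 0.55 (SE 0.10), Iars, the cytosolic isoleucine tRNA ligase, by 0.35 (SE 0.07), and Nsd2, a histone H3 lysine methyltransferase, by 0.27 (SE 0.05). For Nsd2 a pair of its other 3 probes differed by 0.27 and 0.36 and the last by -0.08. A second Iars probe differed by -0.03. Slc12a1, a sodium, potassium and chloride carrier, was higher by 0.73 (SE 0.14) at a low level, and AI837181 by 0.53 (SE 0.10), which lay 0.34 above CM-Het.

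Trappc12, a subunit of the TRAPP vesicle tethering complex on chromosome 12, had no settled direction. The probe kept for it read 6.02, 6.21 and 6.47 in Het, against 4.70, 5.71, 4.36 and 4.75 in Control (1.35, SE 0.26). Another detected probe read 5.17, 4.86 and 4.35 in Het, against 6.28, 5.66, 6.04 and 6.13 in Control, a difference of -1.23. Neither probe overlapped between the groups, and they moved in opposite directions.

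The lower genes after Twist1 have different known roles. Idh2, the mitochondrial isocitrate dehydrogenase, read 10.12, 10.02 and 10.09 in Het, against 10.51, 10.32, 10.46 and 10.51 in Control (-0.37, SE 0.08), and its mean in CM-Het was 10.01. Iscu, the scaffold on which iron-sulfur clusters are built, was lower (-0.27, SE 0.06). Amdhd2, which deacetylates N-acetylglucosamine phosphate, read 7.50, 7.20 and 7.08 in Het, against 7.996, 8.12, 7.58 and 8.30 in Control (-0.74, SE 0.16), and a second probe differed by -0.40. Amdhd2 also differed by -0.50 from CM-Het. Arl3, a small GTPase of cilia, was lower (-0.34, SE 0.07), with a second probe at -0.48. Lsg1, a GTPase of ribosome export, was lower (-0.43, SE 0.09), with a second probe at 0.29. Clns1a, a chaperone of spliceosomal protein assembly, was lower (-0.23, SE 0.05), with other probes at 0.25 and -0.03. Ypel3 was lower (-0.39, SE 0.08), with another probe at 0.05.

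Where every array of 1 genotype read a probe below background, only a lower limit of the fold is given. It sets the mean of the brighter group against a floor, which on each array is the dimmest signal that counted as detected, or the probe's own signal if that was higher. The limit concerns the floor alone and takes in no spread between arrays. Arrays of the brighter group that were below background also enter its mean. It is thus a limit for these arrays and not for the effect of genotype. Tbata was above background on 0 of 3 Het and 4 of 4 Control arrays and was at least 1.20-fold lower in Het. Cpa1, carboxypeptidase A1, was likewise above background on 0 Het arrays and 4 Control arrays and was at least 1.37-fold lower.

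**Figure D3:**
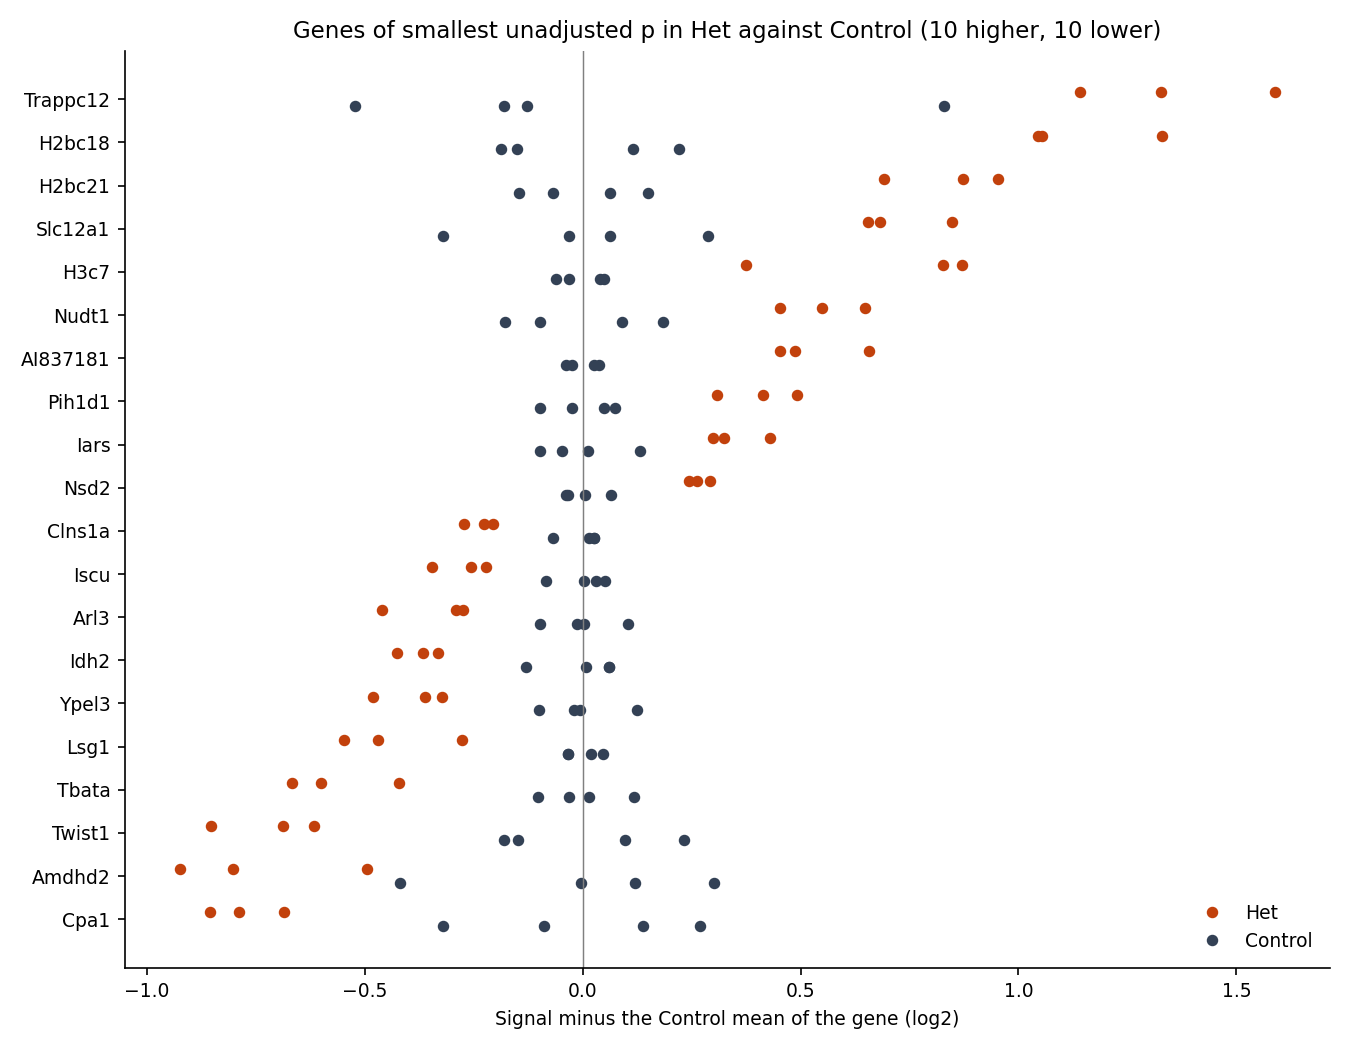
Log2 signal of each Het and Control array minus the Control mean of the gene, for the 10 higher and 10 lower genes of smallest unadjusted p. Het arrays lie to 1 side of all Control arrays for each gene, and the Trappc12 values are those of the probe kept for it, which another probe contradicts.

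The head mesenchyme transcription factors were mostly lower in Het. The list holds Twist1 itself, which is one of the lower members counted here and one of those at an unadjusted p under 0.05. Of 20 tested, 18 were lower, 6 of them at an unadjusted p under 0.05 (6.35% of all genes were lower at that level) and 0 higher, and the median difference was -0.27 against -0.01 over all genes. Foxc2, a forkhead factor of head and somite mesoderm, read 6.58, 6.51 and 6.72 in Het, against 7.69, 7.31, 7.20 and 7.24 in Control (-0.76, SE 0.20, adjusted p = 0.153). Tcf15, a basic helix-loop-helix factor of paraxial mesoderm, read 5.63, 6.10 and 6.49 in Het, against 7.61, 6.57, 6.74 and 6.77 in Control (-0.85, SE 0.27, adjusted p = 0.24). The groups did not overlap for either gene, and Tcf15 also differed by -0.84 from CM-Het.

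Meox1, a homeobox gene of somites, read 4.66, 4.91 and 6.14 in Het, against 9.10, 5.35, 8.11 and 6.79 in Control. Its Het and Control ranges overlapped, and Control 1 and Control 3 were far above the rest (difference -2.10, SE 0.77). Tcf21, a factor of head muscle precursors, was lower in every Het array, at 6.60, 6.85 and 6.92 against 7.14, 6.92, 7.04 and 7.47 in Control (-0.36, SE 0.15). Foxf1 was above background on 0 Het arrays and 2 Control arrays, at least 1.15-fold lower. Others of the list stayed close to Control, with Prrx1 at -0.06 (95% interval -0.41 to 0.29), Foxc1 at -0.14 (-0.47 to 0.19) and Msx1 at 0.08 (-0.21 to 0.36).

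The median of the head mesenchyme list was -0.03 for Het minus CM-Het on the same beadchip and -0.25 for the deleted allele averaged over Cre. The mean over the list was 6.45, 6.56 and 6.59 on the Het arrays, against 7.13, 6.69, 6.89 and 6.88 on the Control arrays, so the groups did not overlap. CM-CKO heads lay at 6.26, 6.32, 6.17 and 6.17, and CM-Het heads at 6.55, 6.62 and 6.77. Without Control 1 and Control 3, 18 of 20 were lower, 3 of them at an unadjusted p under 0.05, with a median of -0.18. In that setting 10.6% of all genes reached that level in either direction.

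Among Twist1 and its partners, 6 of 11 tested genes were higher and 5 lower, Twist1 included, with a median of 0.03. The E proteins Tcf3, Tcf4 and Tcf12 differed by -0.12 (SE 0.15), -0.14 (SE 0.08) and 0.08 (SE 0.12). Id3, an inhibitor of such factors, was 9.98, 9.91 and 9.51 in Het, against 9.17, 9.41, 9.35 and 9.92 in Control (0.34, SE 0.15), with overlap. Twist2, the closest relative of Twist1, differed by -0.40 (SE 0.20) and Hand2, a related factor above background on 2 Het arrays and 0 Control arrays, was at least 1.14-fold higher. That limit takes in no spread between arrays, and the sign of Hand2 turned with the beadchip as a fixed block.

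Genes known for skull vault and suture defects showed smaller differences. Of 20 tested, 13 were lower and 7 higher, 3 lower, Twist1 among them, and 1 higher at an unadjusted p under 0.05, with a median of -0.14. Over all genes 6.35% were lower and 6.1% higher at that level. The median was -0.07 without Control 1 and Control 3, with 1 member lower at that level, beside 10.6% of all genes in either direction. It was -0.04 with the beadchip as a fixed block and -0.06 for the deleted allele averaged over Cre. Jag1, the NOTCH ligand of Alagille syndrome, read 5.49, 5.69 and 5.59 in Het, against 5.77, 5.80, 6.04 and 5.94 in Control (-0.30, SE 0.13). Epha4, an ephrin receptor that acts at the coronal suture in mice, read 5.18, 5.30 and 4.87 in Het, against 4.67, 4.69, 4.80 and 4.66 in Control, where 1 of 4 arrays was above background (0.41, SE 0.14). Neither pair of groups overlapped, and neither gene was called. Fgfr2, the receptor mutated in several craniosynostoses, differed by -0.02 (95% interval -0.20 to 0.16).

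Branchiomeric and pharyngeal mesoderm genes were lower for 11 of 12, with 2 lower and 1 higher at an unadjusted p under 0.05 (6.35% and 6.1% of all genes) and a median of -0.25. Without Control 1 and Control 3 the median was -0.05 and 8 of 12 were lower, and for the deleted allele averaged over Cre the median was also -0.05. Tcf21 and Foxf1, given above, and Hand2 are the members of smallest p.

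Retinoic acid genes, which cover the enzymes and binding proteins of this vitamin A signal and its hindbrain and somite targets, were lower for 11 of 14. At an unadjusted p under 0.05, 6 were lower (6.35% of all genes were lower at that level) and 0 higher. The median was -0.38, and it was -0.13 against CM-Het and -0.22 for the deleted allele averaged over Cre. Crabp2, a cytoplasmic retinoic acid binding protein, read 9.72, 9.81 and 9.85 in Het, against 10.36, 10.13, 10.20 and 9.94 in Control (-0.37, SE 0.09, adjusted p = 0.145). Hoxd3, a homeobox gene of the posterior hindbrain and somites, read 4.74, 4.32 and 5.20 in Het, against 6.84, 5.24, 6.15 and 5.67 in Control (-1.22, SE 0.36, adjusted p = 0.193). Rarb, a retinoic acid receptor, read 6.39, 6.34 and 7.10 in Het, against 8.08, 7.06, 7.27 and 6.80 in Control (-0.69, SE 0.28). The Crabp2 and Hoxd3 groups were apart, the Rarb groups overlapped, and Control 1 was highest for all 3. Without Control 1 and Control 3, 8 of 14 were lower, 1 at an unadjusted p under 0.05, and the median was -0.20. In that setting 10.6% of all genes reached that level in either direction.

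Heart muscle genes gave the largest list difference and the largest spread between arrays. All 19 tested were lower in Het, 2 at an unadjusted p under 0.05 (6.35% of all genes were lower at that level), with a median of -0.97. The mean over the list was 6.37, 6.21 and 7.56 on the Het arrays, against 8.95, 6.73, 8.64 and 6.45 on the Control arrays. Control 1 and Control 3 were high, Het 3 was intermediate, and the groups overlapped. Myl2, the ventricular myosin light chain, read 5.24, 5.34 and 7.72 in Het, against 9.93, 6.55, 9.94 and 6.08 in Control (-2.02, SE 0.95). Nppa, the atrial natriuretic peptide, was above background on 0 Het arrays and 2 Control arrays and was at least 2.29-fold lower in Het. Without Control 1 and Control 3, 14 of 19 were higher in Het and the median was 0.16. Without the 3 arrays that lack Xist signal, Het 3 among them, the median was -1.43. It was 0.12 for Het minus CM-Het, -0.27 with the beadchip as a fixed block and -0.15 for the deleted allele averaged over Cre. The direction of the heart muscle list thus depended on Control 1 and Control 3.

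Control 1 was also high for yolk sac genes. The yolk sac endoderm mean was 4.95, 5.35 and 5.68 on Het arrays, against 6.92, 5.26, 5.74 and 5.29 on Control arrays. Of 11 members 8 were lower, 1 at an unadjusted p under 0.05 (6.35% of all genes were lower at that level), with a median of -0.41. Without Control 1 and Control 3, 9 of 11 were higher and the median was 0.05, and for the deleted allele averaged over Cre it was -0.25. Apob, the carrier protein of lipids in yolk sac endoderm, read 4.73, 4.58 and 5.28 in Het, against 7.65, 5.15, 5.51 and 5.14 in Control. Arg1, arginase, which was picked after its values were seen as the gene of largest difference (-2.23, SE 0.55), read 5.67, 6.13 and 7.59 in Het, against 9.75, 7.65, 9.01 and 8.37 in Control, and CM-Het 3 read 9.03. Spink1 and Pyy, gut endoderm genes, differed by -1.08 (SE 0.45) and -1.06 (SE 0.43) with overlap, while the gut endoderm list had a median of 0.02 and 8 of 15 higher. The part that the amount of attached heart, somite or yolk sac tissue in a dissected head may have in the head mesenchyme and retinoic acid values was not tested beyond these left-out arrays.

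**Figure D4:**
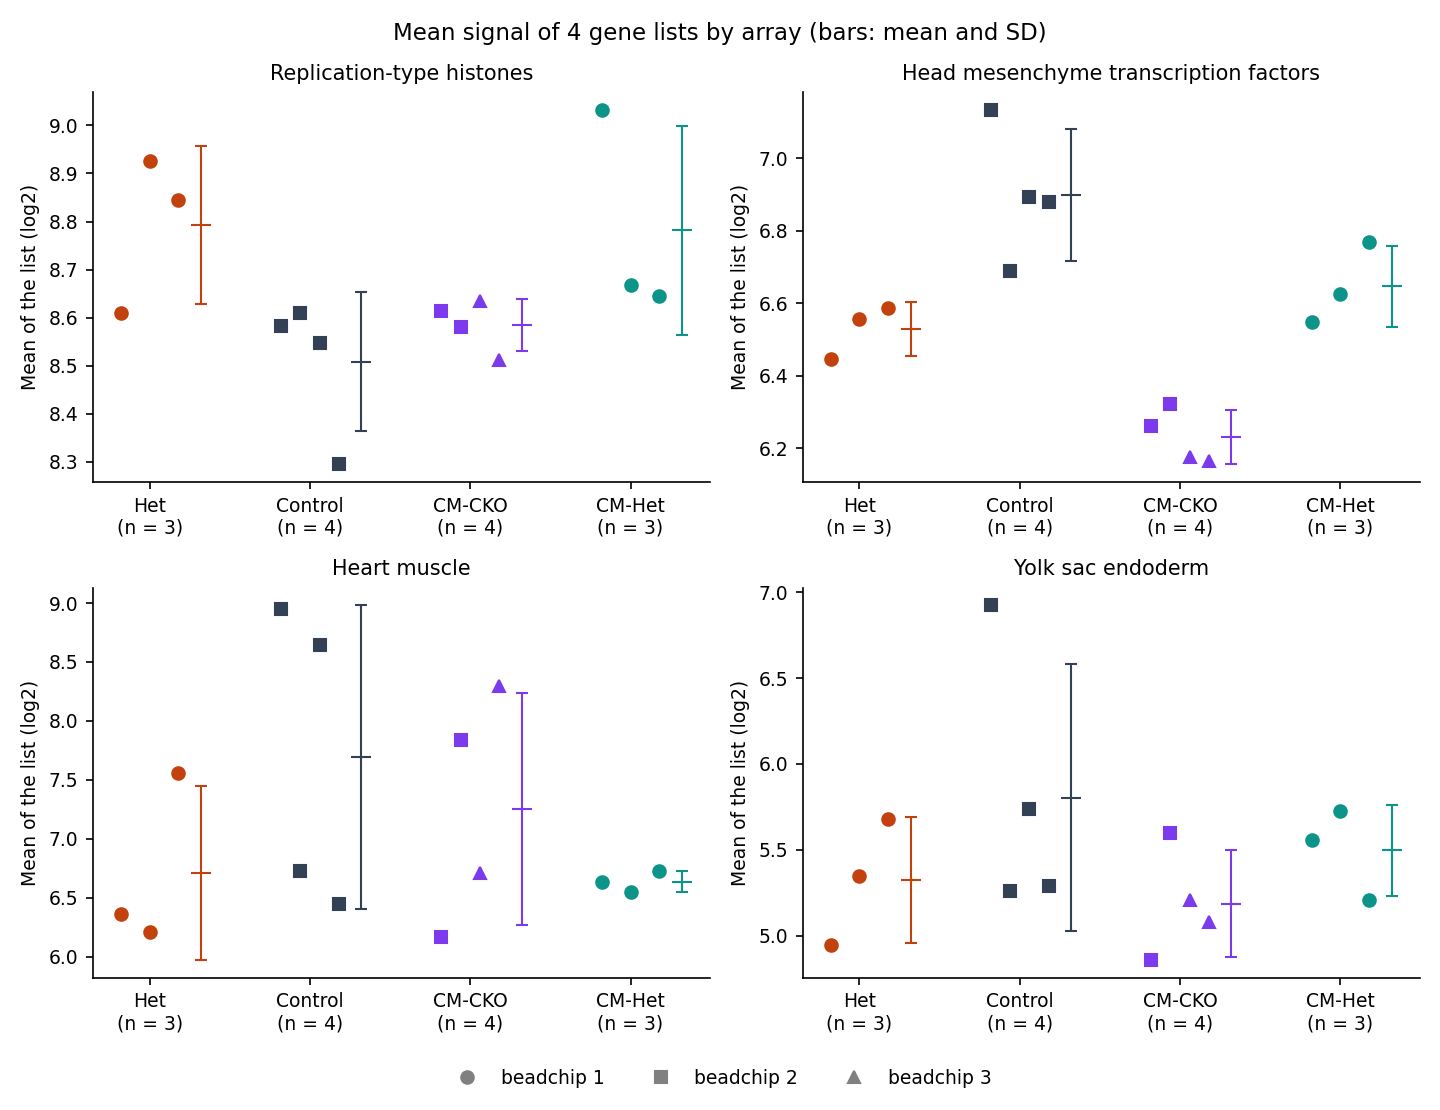
Mean log2 signal of 4 gene lists on each array, by genotype, with group means and SD as bars and the beadchip as the point shape. Histone means of Het and CM-Het on beadchip 1 reach 8.93 and 9.03, head mesenchyme means of Het (6.45 to 6.59) lie below those of Control (6.69 to 7.13), and heart muscle means are high on Control 1 and Control 3.

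Replication-type histones were the list of largest positive median. They are the genes whose messages are made in S phase to package new DNA. Of 19 tested, 15 were higher in Het, 8 at an unadjusted p under 0.05 (6.1% of all genes were higher at that level) and 0 lower, with a median of 0.27. H4c8, a histone H4 gene, read 6.80, 7.06 and 7.13 in Het, against 6.21, 6.27, 6.30 and 6.30 in Control (0.73, SE 0.19, adjusted p = 0.146). H2bc7, an H2B gene, read 9.83, 10.22 and 10.59 in Het, against 9.75, 9.56, 9.43 and 9.33 in Control (0.70, SE 0.19, adjusted p = 0.17). Both were apart between the groups. H4c1 read 10.08, 10.76 and 10.32 in Het, against 9.68, 10.12, 9.91 and 9.12 in Control, with an overlap (0.68, SE 0.21). Over all 52 clustered histone genes found by symbol, a set gathered after the list had been seen, 44 were higher, 27 of them at an unadjusted p under 0.05, and the median was 0.38.

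Histone list means of Het heads were close to those of CM-Het heads on the same beadchip. The median of Het minus CM-Het, both on beadchip 1, was 0.02, that of CM-CKO minus CM-Het was -0.21, and that of the deleted allele averaged over Cre was 0.04. The list mean was 8.61, 8.93 and 8.84 on Het arrays and 9.03, 8.67 and 8.65 on CM-Het arrays, against 8.58, 8.61, 8.55 and 8.29 on Control arrays and 8.61 and 8.58 on the CM-CKO arrays of beadchip 2. Het and Control did not overlap, but Het 1 and Control 2 were level to the second decimal. With the beadchip as a fixed block the median was 0.04, and 2 of 19 members were higher at an unadjusted p under 0.05, beside 6.51% of all genes in either direction. Near-identical histone copies may share a probe, so a value is uncertain as to which gene of a family it reads. Cell division genes, read beside them, had 11 of 22 higher and a median of 0.01, with Mcm5, a subunit of the replicative helicase, higher by 0.17 (SE 0.06) and Ccne2, a cyclin of S phase entry, by 0.37 (SE 0.12). Ccna2, the S phase cyclin, was above background on 0 Het arrays and 4 Control arrays and was at least 1.27-fold lower.

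The upstream bases of a pair of H2B genes are shown because such genes share promoter elements. H2bc18 is one of the 3 histone genes named among those of smallest p, and H2bc7 is a member of the list. Both windows are the 250 bases before the start in RefSeq on GRCm38.p6, H2bc18 at chr3:96269450-96269699 on the plus strand and H2bc7 at chr13:23574208-23574457 on the minus strand, and capitals mark CCAAT or its reverse complement ATTGG.
H2bc18: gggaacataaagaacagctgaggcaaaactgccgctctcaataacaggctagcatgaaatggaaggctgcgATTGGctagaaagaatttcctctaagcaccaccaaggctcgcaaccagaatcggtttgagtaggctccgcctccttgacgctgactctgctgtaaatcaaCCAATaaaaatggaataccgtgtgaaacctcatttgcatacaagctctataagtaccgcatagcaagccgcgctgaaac
H2bc7: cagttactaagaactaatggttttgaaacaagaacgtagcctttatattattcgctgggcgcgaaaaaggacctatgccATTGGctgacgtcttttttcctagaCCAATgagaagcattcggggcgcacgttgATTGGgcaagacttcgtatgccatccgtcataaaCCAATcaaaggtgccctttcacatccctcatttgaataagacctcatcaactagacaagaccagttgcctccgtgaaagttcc
H2bc18 holds 2 such motifs and H2bc7 holds 4. Of the 17 windows found for the histone list, 82.35% hold at least 1, against 33.85% of all 32851 windows. The octamer ATTTGCAT or ATGCAAAT stands in 35.29% of the histone windows and in 1.601% of all, and E-boxes in 41.18% and 66.22%. These shares describe the letters of the windows and do not bear on what set the signal apart.

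Extracellular matrix genes were lower for 24 of 35, with 8 lower and 1 higher at an unadjusted p under 0.05 and a median of -0.11. Over all genes 6.35% were lower and 6.1% higher at that level. Loxl1, which crosslinks elastin, read 6.71, 6.79 and 6.70 in Het, against 7.58, 7.14, 7.42 and 7.28 in Control (-0.62, SE 0.14, adjusted p = 0.102). Col6a1, a chain of collagen VI, read 5.51, 5.88 and 5.84 in Het, against 6.73, 6.34, 6.46 and 6.43 in Control (-0.75, SE 0.17, adjusted p = 0.12), and its second probe differed by -0.54. Col4a1, a chain of basement membrane collagen, was lower (-0.31, SE 0.09). All 3 were apart between Het and Control, beside 11.3% of all genes, and they were the only members apart and lower. Against CM-Het on the same beadchip Loxl1 differed by -0.29, Col6a1 by 0.40 and Col4a1 by 0.00, and the list median was 0.10. Without Control 1 and Control 3, 17 of 35 were lower and the median was 0.04. For the deleted allele averaged over Cre the median was -0.12. With the beadchip as a fixed block it was -0.09, and 25 of 35 were lower. At an unadjusted p under 0.05, 12 members were then lower and 2 higher, beside 6.51% of all genes in either direction. Both of these settings also draw on the heads with Cre.

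Genes of mesenchymal and epithelial state did not share a direction. The mesenchymal list was lower for 10 of 15 (median -0.13), and for 8 of 15 without Control 1 and Control 3 (median -0.06). Its median was -0.12 for the deleted allele averaged over Cre. With the beadchip as a fixed block it was -0.18, with 13 of 15 lower, 5 of them at an unadjusted p under 0.05. In that setting 0 members were higher at that level, beside 6.51% of all genes in either direction. Both settings also draw on the heads with Cre. Pdgfra, a growth factor receptor of mesenchyme, read 8.93, 8.73 and 9.03 in Het, against 9.79, 9.002, 9.29 and 9.02 in Control (-0.38, SE 0.15). Cdh2, N-cadherin, was above background on 3 Het arrays and 0 Control arrays and was at least 1.31-fold higher, and Zeb2 by 0.28 (SE 0.13). In the epithelial list 8 of 14 were higher (median 0.03), with Rab25 higher by 0.43 (SE 0.14) and Krt19, a keratin, lower (-0.56, SE 0.19).

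Signalling lists other than retinoic acid had medians between -0.07 and 0.07. FGF readouts were lower for 13 of 17, and Etv4, a transcription factor induced by FGF, read 6.04, 5.90 and 6.20 in Het, against 6.72, 6.63, 6.35 and 6.63 in Control (-0.53, SE 0.17), whereas Dusp6 differed by 0.09 (SE 0.09). BMP and TGF-beta genes were higher for 11 of 17, with the ligands Bmp7 at -0.36 (SE 0.14) and Bmp4 at -0.30 (SE 0.14). WNT genes were higher for 14 of 20, with the inhibitors Wif1 at 0.41 (SE 0.17), Dkk1 at 0.40 (SE 0.19) and Sfrp1 at -0.30 (SE 0.14). Hedgehog genes were lower for 7 of 11, with the receptor Ptch1 at -0.13 (SE 0.12). NOTCH genes were higher for 8 of 13, with the receptor Notch3 at -0.34 (SE 0.13). Medians without Control 1 and Control 3 were -0.10 for Hedgehog, -0.04 for FGF, 0.10 for BMP and TGF-beta and 0.12 for NOTCH genes. With the beadchip as a fixed block they were 0.0001 for Hedgehog, 0.0009 for FGF (9 of 17 higher), -0.02 for BMP and TGF-beta, 0.08 for WNT and 0.10 for NOTCH genes. For the deleted allele averaged over Cre they were 0.06, 0.02, -0.03, 0.08 and 0.06 in the same order. The first 3 of these lists thus turned in sign in both settings. None of these genes was called.

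Lists of the other cell types in the head had medians from -0.14 (myeloid, 2 genes) to 0.14 (surface ectoderm and placodes), beside -0.01 over all genes. Neural tube genes had 13 of 25 higher and a median of 0.04. Fezf1, a forebrain factor, was 10.62, 10.80 and 10.75 in Het, against 10.24, 10.48, 10.57 and 10.57 in Control (0.26, SE 0.08), Rax, the eye field factor, was higher by 0.43 (SE 0.16), and Dbx1 was lower (-0.36, SE 0.14). Neural crest genes had 8 of 16 higher (median 0.01), with Crabp1 at -0.38 (SE 0.16) and Snai2 at -0.26 (SE 0.13). Surface ectoderm and placode genes had 10 of 17 higher (median 0.14, and 0.04 for the deleted allele averaged over Cre), with Tfap2c at 0.28 (SE 0.10) and Dlx3 at 0.27 (SE 0.14). Endothelial genes had 10 of 24 higher (median -0.02) and 0 members at an unadjusted p under 0.05, beside 12.4% of all genes. Primitive erythroid genes had 6 of 12 higher (median -0.02), with Tal1 at -0.32 (SE 0.14), and Hemgn, above background on 3 Het arrays and 0 Control arrays, at least 1.19-fold higher. The sign of Hemgn turned with the beadchip as a fixed block. Only 2 of 10 myeloid genes were measured, Csf1r at -0.24 (SE 0.17) and Aif1 at -0.03 (SE 0.16). With Control 1 and Control 3 left out the medians were -0.07 for neural tube, -0.07 for gut endoderm, 0.08 for endothelial, 0.14 for neural crest and 0.07 for surface ectoderm and placode genes, so the first 3 of these turned in sign.

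Respiratory chain genes were lower for 15 of 20, 5 of them at an unadjusted p under 0.05 (6.35% of all genes) and 0 higher, with a median of -0.11. Ndufa2, a subunit of complex I, read 11.88, 11.98 and 11.91 in Het, against 12.23, 12.16, 11.999 and 12.16 in Control (-0.22, SE 0.06). Cox7b and Cox6c, subunits of cytochrome oxidase, differed by -0.41 (SE 0.14) and -0.27 (SE 0.10), with overlap. Het minus CM-Het had a median of -0.08 over this list. Cytosolic ribosomal protein genes were lower for 9 of 14 with a median of -0.02, and Rps14 differed by -0.19 (SE 0.07). Genes of the p53 response were higher for 10 of 14 (median 0.08), with Trp53inp1 and Aen each higher by 0.29 (SE 0.11). Hypoxia and glycolysis genes had a median of -0.00, with P4ha2, a collagen prolyl hydroxylase, higher by 0.38 (SE 0.11). Immediate early and heat shock genes were lower for 13 of 19 (median -0.15), and for 10 of 19 without Control 1 and Control 3 (median -0.04), with Jun at -0.38 (SE 0.18) and Zfp36 at -0.36 (SE 0.16).

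**Figure D5:**
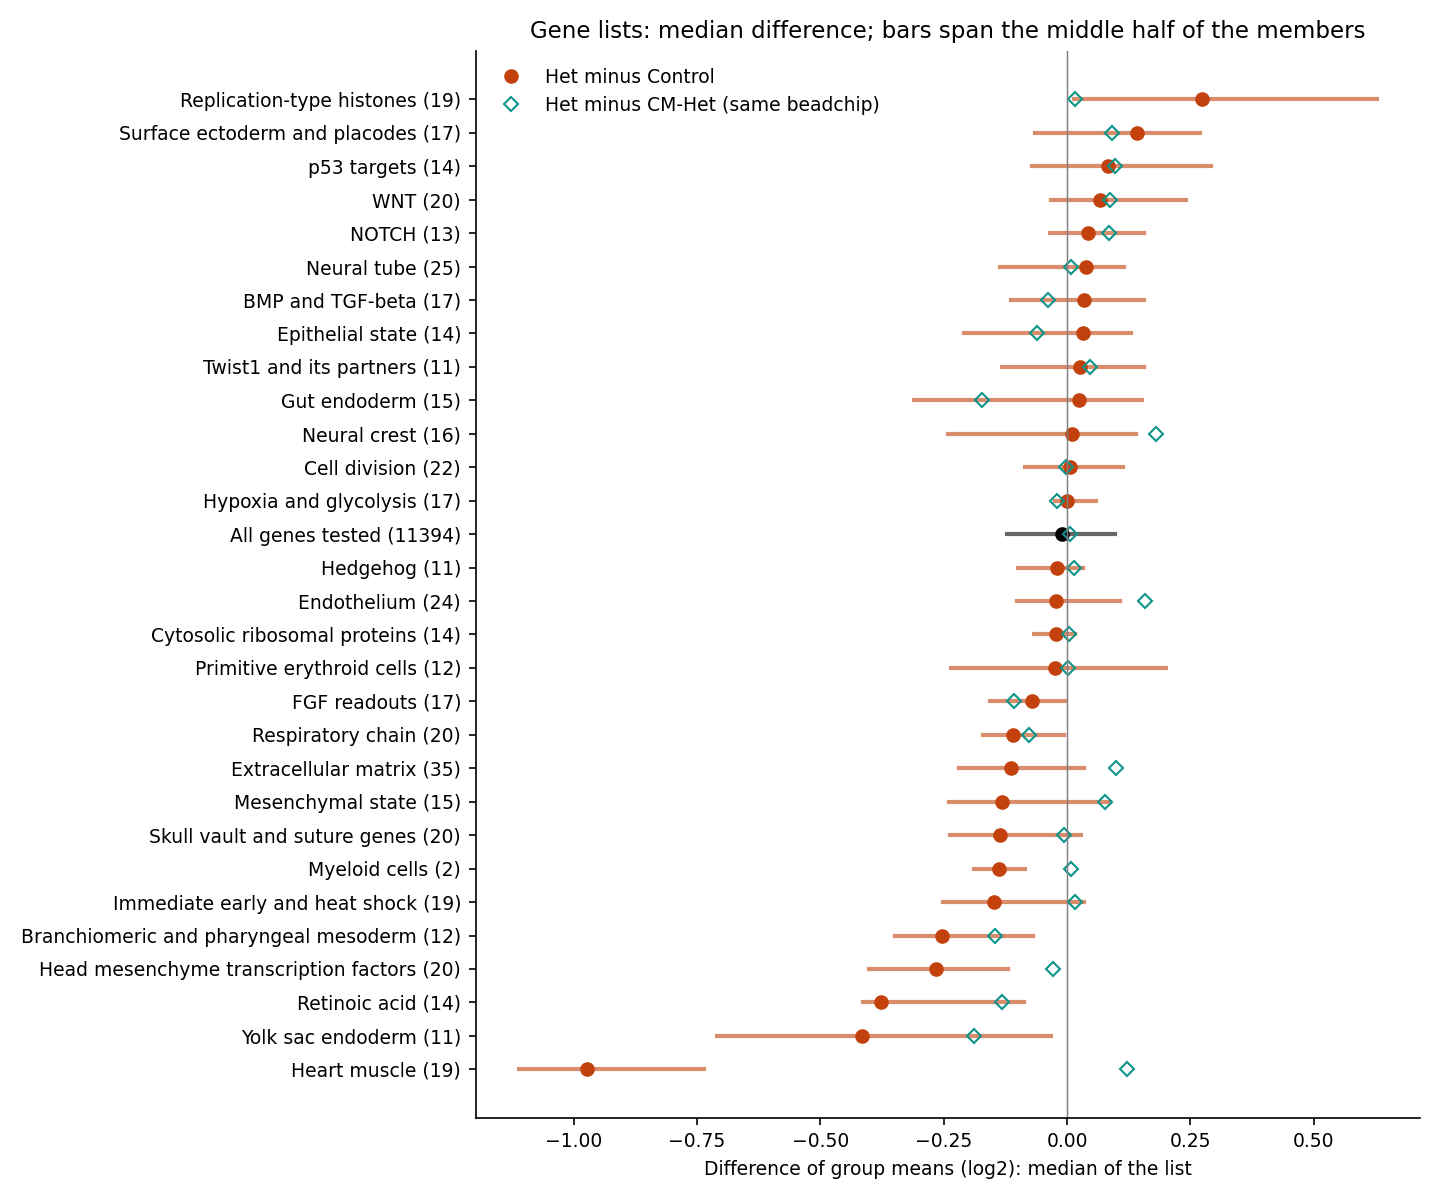
Median log2 difference of each gene list for Het minus Control (filled, with bars over the middle of the members from the lower to the upper quartile) and for Het minus CM-Het on the same beadchip (open diamonds), with the number of tested members. Heart muscle (-0.97), yolk sac endoderm (-0.41), retinoic acid (-0.38) and head mesenchyme (-0.27) lie lowest and replication-type histones (0.27) highest for Het minus Control, and the open diamonds lie nearer to 0 for all 5. CM-Het heads have also lost a copy of Twist1 in the Mesp1 lineage, so the diamonds cannot tell beadchip and genotype apart.

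Het against CM-Het, read on the same beadchip, gave 0 calls (0%) and 451 genes at an unadjusted p under 0.05 (3.96%). The deleted allele averaged over heads with and without Cre gave 10 calls (0.0878%), 1 higher (0.00878%) and 9 lower (0.079%). These were Trappc12, on its kept probe, and Twist1, Ebf3, Lum, Tgfbi, Cd248, Snai2, Col26a1, Itga9 and Tcf15. In Het against Control, the part of this average without Cre, Itga9, an integrin chain, differed by -0.38 (SE 0.09), Col26a1 by -0.26 (SE 0.10), Cd248, a fibroblast surface protein, by -0.25 (SE 0.15), Ebf3, a head mesenchyme factor, by -0.20 (SE 0.11), Lum, the proteoglycan lumican, by -0.13 (SE 0.15) and Tgfbi by -0.11 (SE 0.11). Ebf3, Lum and Tgfbi differed by -1.42, -1.72 and -0.96 in CM-CKO minus CM-Het, so most of their averaged difference came from the heads with Cre, whereas Twist1 (-0.72 without Cre and -0.90 with Cre) and Itga9 (-0.38 and -0.39) differed by similar amounts in both.

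CM-CKO against CM-Het compares the same 2 Twist1 genotypes in the presence of Cre. In the Mesp1 lineage, where Cre acts on the floxed copy, this sets no intact copy against 1, whereas Het against Control sets 1 against 2. CM-CKO against CM-Het shares no array with Het against Control. Of the 16 genes called lower there (0.14%), 9 were lower in Het against Control, with a median of -0.08, beside 52.8% of all genes lower. Of the 8 called higher (0.0702%), 1 was higher, with a median of -0.14, beside 47.2% of all genes higher. Across the 11394 genes, which are not independent replicates, the 2 sets of differences had a Pearson correlation of -0.19 and a Spearman correlation of -0.22, given as a description. A shift between beadchips 1 and 2 enters these differences with opposite signs. The difference between them was called for 114 genes (1%), 31 higher and 83 lower, and the same shift adds to this contrast.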

How the data were processed

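Heads were grouped by the genotype label (3 Het, 4 Control, 3 CM-Het, 4 CM-CKO). The authors deposited for each array a probe intensity on a linear scale without normalization, per the file headers and the values, with a detection p-value beside it. They also deposited a table of log2 values, which differ by at most 0.0329 from quantile-normalized log2 intensities and served as an alternative. Scanner and software are not stated in the labels. In the deposited order the detection p-values do not match their intensities (rank correlation -0.105 to -0.0946), so each array's p-values were reassigned by rank, after which 45259 of 45281 intensity and p rows occur as deposited.

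Intensities were processed with neqc, which corrects background and then quantile normalizes (limma 3.58.1, R 4.3.3, offset 16). A probe was kept when its detection p was under 0.05 on 3 or more arrays, and the brightest probe per gene symbol of the platform annotation left 11394 genes, of which 4458 have another detected probe. Probes without a single symbol (3109 detected) were tested separately. A limma model with 1 mean per group used all 14 arrays, with eBayes and a trend, and Benjamini-Hochberg adjustment over 11394 genes. A call is an adjusted p under 0.05. The script was tested on simulated data.

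Named are Twist1, the 10 higher and 10 lower genes of smallest p, up to 3 members of smallest p per list, and genes marked as added. Other list members are named for their known role, with their values seen. The 29 lists (625 entries, 485 tested), their members and the tests were chosen with earlier results of these data known. Arrays with the same replicate number did not deviate together (correlations -0.237, 0.105 and -0.116), so the numbers do not pair the samples. Alternatives are given in the closing section.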

Additional observations from a re-analysis of the deposited data

Results flagged for a closer look

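Over 127 groups of 4 Control arrays looked at (98 genes and 29 list means), 7 held an array far from the other 3, measured as its gap to the nearest array over the group's range. Chance gives about 1 in 20. Control 1 was the array apart for Amn (0.938), Apob (0.852) and the mean of cytosolic ribosomal proteins (0.886). Control 4 stood apart for Egfl7 (0.901) and P4ha2 (0.847), Control 3 for Clns1a (0.857) and Control 2 for Hand2 (0.84). For Amn, a yolk sac endoderm gene, Control 1 read 7.81 and the other Control arrays 6.02 to 6.13.

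For 19 of 98 named genes the effect of the deleted allele differed between heads with Cre and heads without it, tested as (CM-CKO minus CM-Het) minus (Het minus Control) in limma. Over all genes this difference was called for 114 of 11394 (1%). The named genes were chosen for a small p of Het minus Control, which is part of the contrast, so their count is raised by that choice and supports nothing. A shift between beadchips adds to this contrast, and its part cannot be told apart here. The step of Twist1 copy number in the Mesp1 lineage also differs with and without Cre, and its part was not tested. Histones differed by -1.61 for H2bc18 (adjusted p = 0.0237), -1.42 for H2bc21 (0.0065), -1.28 for H4c1 (0.0467), -1.26 for H4c8 (0.0384) and -1.19 for H3c7 (0.0101). Other negative values were -1.11 for Slc12a1 (adjusted p = 0.0187), -0.963 for P4ha2 (0.0101), -0.853 for Nudt1 (0.0132), -0.625 for Tfap2c (0.0486), -0.617 for AI837181 (0.0393), -0.562 for Iars (0.0147), -0.505 for Pih1d1 (0.0292) and -0.343 for Nsd2 (0.0389). Positive values were 1.11 for Cpa1 (adjusted p = 0.0379), 1.05 for Cox7b (0.0187), 0.917 for Jag1 (0.0292), 0.781 for Idh2 (0.00589), 0.715 for Nkx6-1 (0.0421) and 0.626 for Lsg1 (0.0292).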

How the results depend on the processing

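The main limits are the 3 against 4 arrays, the beadchip, which cannot be told apart from genotype, and the arrays of high heart muscle signal. Where a value changed, the cause was not tested, save that some settings kept another probe of a gene, as given below. Against 0 calls, Het against Control had 4 with every detected probe tested (Meis2, Rnmt, Supt16 and Twist1), 1 with the 7 Het and Control arrays alone (H2bc21), 1 with robust eBayes (Twist1), 7 with the beadchip as a fixed block and additive allele terms (Cbr3, Cd248, Ebf3, Lum, Tgfbi, Trappc12 and Twist1), 83 with the beadchip as a random block (50 higher, 33 lower), whose estimated correlation of -0.0585 narrows the errors between beadchips, and 0 to 2 with any array left out, the 2 being Trappc12 and Twist1 without Control 2.

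The Twist1 difference of -0.72 became a call with every detected probe tested (-0.72, adjusted p = 0.0497), robust eBayes (-0.72, 0.0179), the random block (-0.73, 0.0193) and the fixed block (-0.78, 7e-04). With an array left out it ran from -0.64 to -0.78, with adjusted p from 0.0483 without Control 2 to 0.241 without Het 2. With the replicate block there were 0 calls and the adjusted p of Twist1 was 0.152.

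The 10 calls of the deleted allele averaged over Cre became 18 with robust eBayes, 17 with heart muscle signal as a covariate, 4 with Xist signal as a covariate, 4 without the 3 arrays that lack Xist, 6 without Control 1 and Control 3, and 4 with detection p in the deposited order. These last 3 settings were chosen after seeing the data. With an array left out there were 8 to 14. The 114 calls of the difference with and without Cre became 195 with every probe, 714 with the random block, 20 with the replicate block, 28 without the arrays that lack Xist and 47 without Control 1 and Control 3. With an array left out there were 27 (without Het 2) to 76.

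Signs turned for single genes, none of them called. With the fixed block this was so for Idh2 (0.022), Hand2 (-0.018), Jag1 (0.23), Zeb2 (-0.010), Rab25 (-0.025), Hemgn (-0.0073), Aif1 (0.21), Tfap2c (-0.042), Nkx6-1 (0.22), P4ha2 (-0.10) and Cox7b (0.087). With detection p in the deposited order it was so for H2bc21 (-0.18), Egfl7 (0.18) and Bmp7 (0.023). That setting changes only which probes are kept, so these values are those of another probe. Trappc12 read -1.23 on the 7 arrays alone and -1.01 without the arrays that lack Xist. In both settings its other probe, described above as opposite in direction, was the brighter and was the probe kept. Aif1 read 0.065 with Xist as a covariate, and with an array left out it ran from -0.087 to 0.026, highest without Control 4. Rbp4 read 0.016 without Control 1 and Control 3. Egr3 read 0.19 without Control 2, 0.34 without Control 3, 0.19 without Control 4 and 0.43 without Control 1 and Control 3, and its lowest value with an array left out was -0.31 without Het 3. Of the other values of single genes, 2423 kept direction and side of the threshold and 24 became calls. Of the list medians, 708 moved by less than the spread of the Control arrays and 45 by more. That spread (SD) was 1.29 for heart muscle and 0.78 for yolk sac endoderm. Without Control 1 and Control 3 the heart muscle median turned from -0.97 to 0.16 and the yolk sac median from -0.41 to 0.05. Both count among the 708, so that count does not show that signs held.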

Other observations

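The 3109 detected probes without a single gene symbol were tested apart from the named genes. Het against Control had 0 calls among them, 512 (16.5%) had an unadjusted p under 0.05, and the smallest adjusted p was 0.0587. Of these probes, 29 were above background on Het arrays and on 0 Control arrays.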
